A study of Mus musculus with 6 samples.

Results

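Fc receptors and their signalling adaptors were followed in cultured mouse neutrophils by 7 probe sets for 5 genes, listed by probe set identifier and not by their values, out of 45037 probe sets on the array (control probe sets excluded). The members are Fcgr1 (1417876_AT), Fcgr2b (1435476_A_AT, 1435477_S_AT and 1451941_A_AT), Fcgr3 (1448620_AT), Fcer1g (1418340_AT) and Tyrobp (1450792_AT). All 7 passed the filter on low signal, along with 27022 probe sets in all. Messenger RNA of miR-223 null neutrophils (3 arrays) was compared with that of wild-type neutrophils (3 arrays). In both genotypes, progenitors from mouse bone marrow had spent 6 days with G-CSF, the growth factor of granulocytes, plus stem cell factor in isotope-labelling medium and a further 42 hours without stem cell factor, and live cells were then taken by magnetic sorting. The labels name neither the strain, age or sex of the mice nor the kind of null allele, and they do not say whether replicates came from separate mice, so p-values measure only the spread between these arrays.

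Fc receptors bind the constant part of antibodies and let myeloid cells take up and attack antibody-coated targets. The activating receptors Fcgr1, which binds monomeric IgG with high affinity, and Fcgr3, a low-affinity receptor for immune complexes, signal through the FcR gamma chain encoded by Fcer1g, a short transmembrane adaptor with an immunoreceptor tyrosine-based activation motif (ITAM) that recruits the kinase Syk. Tyrobp encodes DAP12, an ITAM adaptor of the same kind that serves other receptors of myeloid cells, such as those of the Trem family. Fcgr2b is the inhibitory low-affinity IgG receptor, whose cytoplasmic motif recruits the phosphatase SHIP and dampens ITAM signals. The gene table for GRCm38.p6 places Fcgr2b, Fcgr4, Fcgr3 and Fcer1g in this order on chromosome 1, with 7 other protein-coding genes between Fcgr3 and Fcer1g, and it places Fcgr1 on chromosome 3 and Tyrobp on chromosome 7.

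The microRNA that the null cells lack is encoded on chromosome X, and its main mature form is shown because it defines the comparison. It lies at chrX:96242884-96242905 on the plus strand (GRCm38.p6, RefSeq), and capitals mark its seed, bases 2 to 8, the part that pairs with target mRNAs.
mmu-miR-223-3p: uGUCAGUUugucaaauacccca
Its level and its sites in the member transcripts were not analysed here.

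The upstream sequences of 3 members are shown as context, for the receptor gene Fcgr3, its adaptor gene Fcer1g, and Fcgr1, which varied most between arrays. Each run is the 250 bases before a transcription start listed by RefSeq (GRCm38.p6), on the gene's own strand, which is the minus strand in all 3. Fcgr1 lies at chr3:96293970-96294219, Fcgr3 (the first of 2 listed starts) at chr1:171059404-171059653 and Fcer1g at chr1:171234350-171234599. The Fcgr3 window lies within the annotated span of its gene, which extends further upstream. Capitals mark matches, on either strand, to GAGGAA, the purine box read by the myeloid factor PU.1, and to TTCNNNGAA, a palindrome read by STAT factors.
Fcgr1: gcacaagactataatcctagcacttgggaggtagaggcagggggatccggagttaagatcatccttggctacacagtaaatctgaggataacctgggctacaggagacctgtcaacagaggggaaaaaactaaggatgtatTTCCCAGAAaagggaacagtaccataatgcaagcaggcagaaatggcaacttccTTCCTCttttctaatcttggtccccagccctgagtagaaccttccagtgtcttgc
Fcgr3: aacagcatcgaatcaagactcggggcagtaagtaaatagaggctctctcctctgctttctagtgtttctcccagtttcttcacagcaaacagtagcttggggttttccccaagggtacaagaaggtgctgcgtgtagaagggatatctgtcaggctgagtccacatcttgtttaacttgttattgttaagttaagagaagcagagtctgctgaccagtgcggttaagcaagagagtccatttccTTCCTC
Fcer1g: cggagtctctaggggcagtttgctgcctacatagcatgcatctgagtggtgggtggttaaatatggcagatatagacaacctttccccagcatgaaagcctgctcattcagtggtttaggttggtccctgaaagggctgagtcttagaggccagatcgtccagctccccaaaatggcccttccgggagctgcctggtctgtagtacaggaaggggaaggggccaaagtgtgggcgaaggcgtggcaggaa
Fcgr1 held 1 match to each motif, which did not overlap, and Fcgr3 held 1 match to GAGGAA. Fcer1g held no match to either, and neither did the same window of Fcgr2b, while Tyrobp was not examined. Among 32851 windows of this length, 23.3% held GAGGAA and 7.02% held TTCNNNGAA, so these matches are a description of the letters only. Both motifs were chosen after the sequences had been seen.

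The arrays had medians of 4.71 to 4.73 on the log2 intensity scale. The replicate 1 arrays of both genotypes were closest to each other (r = 0.994 across the 27022 probe sets), and each of the other 4 was closest to an array of its own genotype. For beta-actin, the 3' control probe set exceeded the 5' one by 0.28, 0.18 and 0.21 on null arrays 1, 2 and 3, against 0.26, 0.15 and 0.18 log2 units on wild-type arrays 1, 2 and 3. The same difference for Gapdh was -0.11, -0.0038 and 0.067 on null arrays, against -0.090, -0.060 and -0.064 on wild-type arrays. Replicate 1 was thus highest for beta-actin and lowest for Gapdh in both genotypes. Arrays that share a replicate number deviated from their group means together, with r = 0.70, 0.30 and 0.48 for numbers 1, 2 and 3. The number was therefore also used as a block. The swapped pairs correlated too, null 2 with wild-type 3 at r = 0.21 and null 3 with wild-type 2 at r = 0.41. These correlations therefore cannot tell how replicates 2 and 3 pair, and the blocked calls below depend on that pairing. Across all 27022 probe sets, limma called 0.189% at a Benjamini-Hochberg adjusted p under 0.05 when the arrays were unpaired, and 10.0% with the block. Among the 7 members, none was called unpaired and 2 were called with the block. At an unadjusted limma p under 0.05 the unpaired fit held 3 of the 7 members (Fcgr3, Fcer1g and Tyrobp) and 10.7% of all probe sets.

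Both signalling adaptors were slightly higher in miR-223 null neutrophils with the block, Fcer1g by 1.11-fold and Tyrobp by 1.09-fold, and Fcgr3, the receptor that uses the Fcer1g chain, differed by 1.12-fold without passing the threshold. The 3 probe sets of the inhibitory receptor Fcgr2b had means below wild type, none of which passed. Fcgr1 differed far more between replicate numbers than between genotypes. With the block, 2 of the 7 members were called higher, where 4.96% of all probe sets were. In 3 of the 7 members every null array lay above every wild-type array, where 8.12% of all probe sets showed this, and the same 3 were higher in null arrays in 3 of 3 replicate pairs, where 21.6% of all probe sets were.

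**Figure D1:**
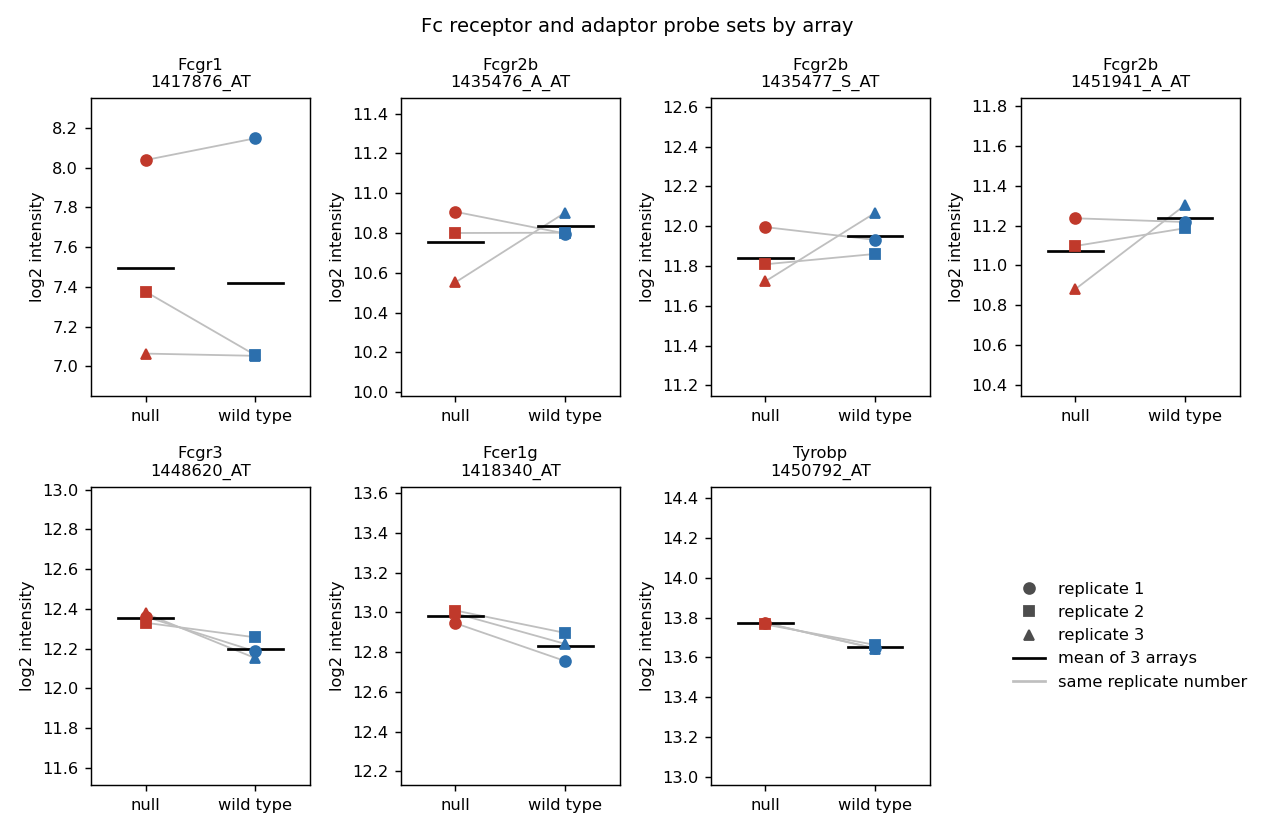
Log2 intensity (y axis) of each of the 7 probe sets on the 3 miR-223 null arrays (left, red) and the 3 wild-type arrays (right, blue). Marker shapes give the replicate number, grey lines join arrays that share it, black bars are means, and every panel spans the same number of log2 units; the null arrays lie above all wild-type arrays for Fcgr3, Fcer1g and Tyrobp only.

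The FcR gamma chain gene Fcer1g read 12.95, 13.01 and 12.995 log2 units on null arrays 1, 2 and 3, against 12.76, 12.90 and 12.84 on wild-type arrays 1, 2 and 3. All null arrays were above all wild-type arrays, with a gap of 0.049 log2 units between the lowest null and the highest wild-type array. Null arrays averaged 12.98 ± 0.034 and wild-type arrays 12.83 ± 0.071 (SD, n = 3 each), a log2 difference of 0.15 (SE 0.055, 1.11-fold, 95% confidence interval 1.02 to 1.21). This difference was not called by limma without the block (adjusted p = 0.377) and was called with it (limma adjusted p = 0.0298). Within replicate numbers 1, 2 and 3 the difference was 0.19, 0.11 and 0.15 log2 units.

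Tyrobp, the DAP12 gene, had the smallest spread of the 7. It read 13.77 on each of the 3 null arrays, against 13.65, 13.66 and 13.64 on wild-type arrays 1, 2 and 3. The genotypes did not overlap, and the gap between them, 0.10 log2 units, exceeded the SD within either genotype (0.0044 in null and 0.010 in wild type, n = 3 each). The log2 difference was 0.12 (SE 0.036, 1.09-fold, 95% confidence interval 1.03 to 1.15), with a limma adjusted p of 0.297 unpaired and 0.0375 with the block. Within replicate numbers it was 0.13, 0.10 and 0.13. The limma SE exceeds what these 6 values alone would give because it borrows spread from probe sets of similar signal.

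Fcgr3, the activating low-affinity receptor, read 12.36, 12.33 and 12.38 on null arrays 1, 2 and 3, against 12.19, 12.26 and 12.15 on wild-type arrays 1, 2 and 3. The genotypes again did not overlap, with a gap of 0.073 log2 units. The log2 difference was 0.16 (SE 0.056, 1.12-fold, 95% confidence interval 1.02 to 1.22), and it missed the threshold in both fits (limma adjusted p = 0.371 unpaired and 0.0505 with the block). With the block it passed when only probe sets above the 60th percentile of signal were tested (limma adjusted p = 0.0387) and after quantile normalization (limma adjusted p = 0.0460). Both settings were added after seeing the data. It missed with the block in every other setting. The limma adjusted p was 0.0552 without a filter, 0.0526 after median centring and 0.247 without the intensity trend. Without the pair of replicate 1, 2 or 3 it was 0.135, 0.112 and 0.118.

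The blocked calls of both adaptors were lost without the intensity trend in the variance and without pair 1 or pair 2. Without pair 3 that of Tyrobp was lost, and Fcer1g stayed just under the threshold. Without the trend, the limma adjusted p with the block was 0.236 for Fcer1g and 0.317 for Tyrobp. Without the pair of replicate 1, 2 or 3, it was 0.104, 0.125 and 0.0499 for Fcer1g, and 0.109, 0.177 and 0.0765 for Tyrobp, while the differences stayed between 0.13 and 0.17 log2 units for Fcer1g and between 0.11 and 0.13 for Tyrobp. Differences of this size were common on these arrays: 37.1% of all 27022 probe sets differed by at least as much as Fcer1g in either direction, and 47.2% by at least as much as Tyrobp. Of the 776 probe sets with a mean of 12 log2 units or more, the class that holds Fcgr3, Fcer1g and Tyrobp, 11.6% had all null arrays above all wild-type arrays and 8.63% were called higher with the block; the class was set after the values were seen. The highest value on any array was 14.99, and the lowest Tyrobp value lay 1.34 log2 units below it, a range in which array signals can be compressed.

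A change in the number of cells of a type and a change in RNA per cell cannot be told apart in these bulk samples. Markers of monocytes or other cells that also carry these receptors were not analysed here.

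**Figure D2:**
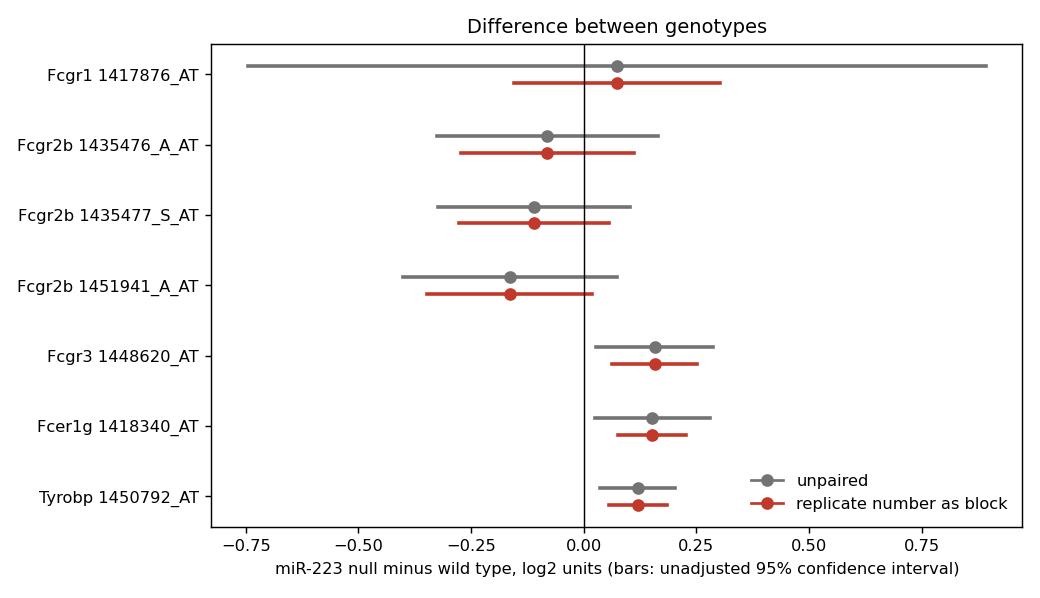
Difference between genotypes (x axis, miR-223 null minus wild type, log2 units) for each probe set, as points with unadjusted 95% confidence intervals, from limma without pairing (grey) and with the replicate number as a block (red). The intervals of Fcgr3, Fcer1g and Tyrobp lie above 0 in both fits, and those of Fcgr1 and the 3 Fcgr2b probe sets include 0.

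The inhibitory receptor Fcgr2b was measured by 3 probe sets that varied together, with r = 0.87 to 0.95 between them over the 6 arrays. Probe set 1451941_A_AT read 11.24, 11.10 and 10.88 on null arrays 1, 2 and 3, against 11.22, 11.19 and 11.30 on wild-type arrays 1, 2 and 3. Null array 3 was the lowest of the 6, and the genotypes overlapped. The log2 difference was -0.16 (SE 0.10), so null arrays had 89.2% of the wild-type signal (95% confidence interval of the fold 0.757 to 1.05, limma adjusted p = 0.638 unpaired and 0.237 with the block). Within replicate numbers 1, 2 and 3 it was 0.019, -0.089 and -0.42 log2 units, which puts most of it in replicate 3.

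The other Fcgr2b probe sets showed the same layout with smaller mean differences. Probe set 1435476_A_AT read 10.91, 10.80 and 10.55 on null arrays 1, 2 and 3, against 10.80, 10.80 and 10.90 on wild-type arrays 1, 2 and 3, a log2 difference of -0.08 (SE 0.11, limma adjusted p = 0.859). Probe set 1435477_S_AT read 11.995, 11.81 and 11.72 on null arrays, against 11.93, 11.86 and 12.07 on wild-type arrays, a log2 difference of -0.11 (SE 0.091, limma adjusted p = 0.749). Null array 3 was the lowest for both. Without null array 3 the differences of 1435476_A_AT, 1435477_S_AT and 1451941_A_AT became 0.02, -0.05 and -0.07 log2 units. The S in an Affymetrix identifier marks a probe set that can match transcripts of more than 1 gene. Fcgr2b and Fcgr3 are alike in their extracellular part, but whether 1435477_S_AT reads both was not examined. Over the 6 arrays its r was -0.63 with Fcgr3, against 0.87 with 1435476_A_AT and 0.92 with 1451941_A_AT.

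Averaged over its 3 probe sets, Fcgr2b stood at 11.22 ± 0.16 on null arrays and 11.34 ± 0.074 on wild-type arrays (SD, n = 3 each). The distance between one pair of its probe sets was smaller in null arrays. The value of 1451941_A_AT minus that of 1435476_A_AT was 0.33, 0.30 and 0.33 log2 units on null arrays 1, 2 and 3, against 0.42, 0.38 and 0.40 on wild-type arrays 1, 2 and 3. Every null array was below every wild-type array. The change, null minus wild type, was -0.083 log2 units, and the SD was 0.018 in each genotype. The pair was singled out after its values were seen, and no test is given. The A in both identifiers marks probe sets that can read several transcripts of a gene.

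The mean of Fcgr3 was higher and that of Fcgr2b lower in null arrays, and the log2 difference between the activating and the inhibitory low-affinity receptor within an array was larger there. Fcgr3 minus the Fcgr2b mean was 0.98, 1.09 and 1.33 log2 units on null arrays 1, 2 and 3, against 0.87, 0.97 and 0.73 on wild-type arrays 1, 2 and 3. The genotypes did not overlap, with a gap of 0.0075 log2 units, and replicate number 3 gave the widest difference, 0.60, against 0.11 and 0.12 for numbers 1 and 2. The mean change was 0.28 log2 units, and 0.18 without null array 3. Fcgr3 by itself already had no overlap. The like values for Fcer1g and Fcgr1 minus the Fcgr2b mean did overlap between genotypes. Their mean changes were 0.27 log2 units for Fcer1g and 0.19 for Fcgr1, where replicate number 1 went the other way, at -0.17. A probe set's signal depends on its probes, so such a value shows unequal change between genotypes, not which receptor mRNA was more abundant, and no test is given for a value built from members. Fcgr3 and its adaptor Fcer1g kept their distance, at -0.63 ± 0.048 log2 units in null and -0.63 ± 0.060 in wild-type arrays (SD, n = 3 each). This was not particular to that pair. Fcer1g minus Tyrobp also overlapped between genotypes, at -0.79 ± 0.036 in null and -0.82 ± 0.064 in wild-type arrays.

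**Figure D3:**
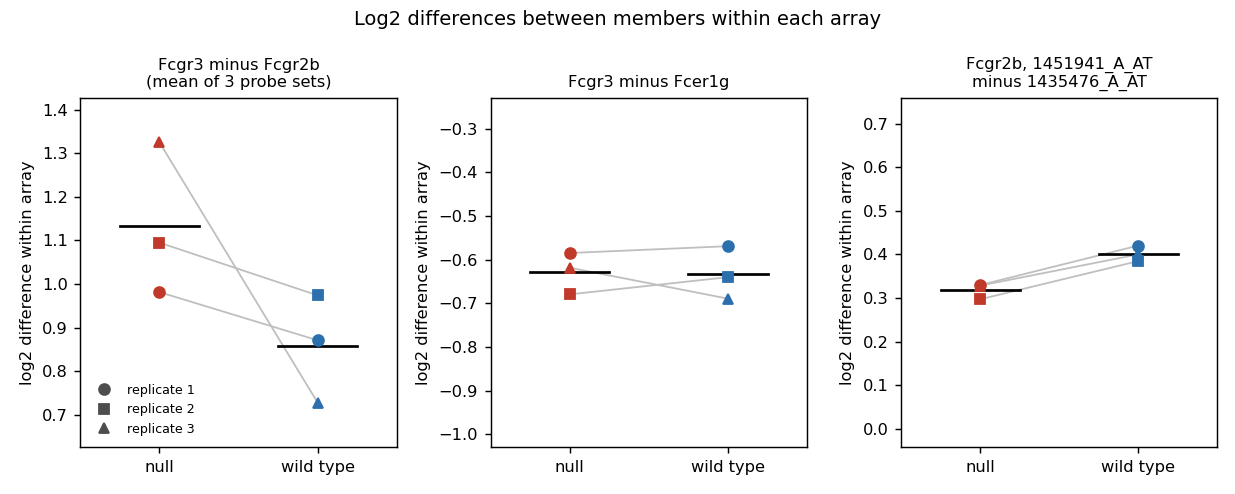
Within-array log2 differences (y axis, log2 units) between Fcgr3 and the Fcgr2b mean, between Fcgr3 and Fcer1g, and between 2 Fcgr2b probe sets, on null arrays (left, red) and wild-type arrays (right, blue). Marker shapes give the replicate number, grey lines join equal numbers and black bars are means; the genotypes are apart in the left and right panels and overlap in the middle one.

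Fcgr1, the high-affinity receptor, had the widest spread of the 7 members. It read 8.04, 7.38 and 7.06 on null arrays 1, 2 and 3, against 8.15, 7.06 and 7.05 on wild-type arrays 1, 2 and 3. Replicate 1 was the highest array in both genotypes, by 0.82 log2 units over the mean of replicates 2 and 3 in null cells and by 1.09 in wild-type cells, and the genotypes overlapped. The log2 difference between genotypes was 0.07 (SE 0.35, 95% confidence interval -0.74 to 0.89, limma adjusted p = 0.972), and with the block the interval narrowed to -0.16 to 0.30 (limma adjusted p = 0.703). Single arrays set the direction, as the unpaired difference was -0.20 without null 1, -0.11 without wild-type 2 or wild-type 3, and 0.44 without wild-type 1. These intervals leave room for a difference between genotypes in either direction. Replicate 1 stood this far above replicates 2 and 3 in both genotypes for 55 of the 27022 probe sets, Fcgr1 included. The spiked poly-A controls were also highest on the replicate 1 arrays, at 8.75 on the null and 8.58 on the wild-type array, against 8.20 and 8.42 on the other null arrays and 8.21 and 7.99 on the other wild-type arrays, and their part in the Fcgr1 values was not tested.

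Over the 6 arrays Fcgr3, Fcer1g and Tyrobp varied together, with r = 0.87 between Fcgr3 and Fcer1g, 0.96 between Fcgr3 and Tyrobp and 0.88 between Fcer1g and Tyrobp, values that include the shared difference between genotypes and the shared arrays. Within a genotype they did not always go together. Among null arrays Fcer1g was highest on array 2, where Fcgr3 and Tyrobp were lowest. Among wild-type arrays each of these genes was highest on array 2. Outside the members, the probe set most like Tyrobp over the 6 arrays was 1448609_AT (r = 0.998), at a mean of 9.90 in null and 9.51 in wild-type arrays. The probe set most like Fcgr3 was 1423488_AT (r = 0.996), at 9.07 in null and 8.64 in wild-type arrays. The closest probe sets of the other genes reached r = 0.997 for Fcgr1, 0.999 for Fcgr2b and 0.992 for Fcer1g. Their means in null and wild-type arrays were 8.47 and 8.46 for Fcgr1, 4.71 and 4.85 for Fcgr2b, and 9.61 and 9.38 for Fcer1g. With 6 arrays such correlations were not confined to these probe sets. Outside the members, 239 probe sets (0.885%) reached r = 0.95 with Tyrobp and 92 (0.341%) with Fcgr3. For Fcgr1 it was 577 (2.14%), for Fcer1g 78 (0.289%) and for 1435477_S_AT of Fcgr2b 40 (0.148%).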

How the data were processed

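The deposited table holds log2 intensities of 45101 probe sets on 6 Affymetrix arrays, and the values were used as given; the base of the logarithm was inferred from their highest value, 14.99. Per the submitters' processing notes GCOS was used, and the background correction, normalization and probe summary are not given in the sources used here. Array distributions were already alike, so differences are relative to the rest of each array. Genes were assigned to the 7 probe sets by the list that defines the members. Other rows were not paired with genes, so the planned pathway lists and cell type markers were not run.

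The 64 control probe sets were set aside, and probe sets with a mean at or above the 40th percentile were tested (limma 3.58.1, R 4.3.3; lmFit, eBayes with intensity trend, two-sided, Benjamini-Hochberg over all 27022, threshold 0.05). The replicate number as a block was the alternative fit. Numbers were taken to pair arrays because every same-number correlation of deviations passed 0.1. The pairing of replicates 2 and 3 is unsure, since the swapped pairs pass the same rule. Null 3 also correlated with wild-type 2 (r = 0.41) and null 2 with wild-type 3 (r = 0.21). Deviations from a mean of 3 arrays are not independent, so the rule cannot decide between the pairings. The number of arrays limits precision. The script was tested on simulated data with known differences. These were larger than the differences of the members, and the simulation took the pairing as real. The test therefore does not bear on calls of the members' size or on the pairing. All 7 members are named, with the most similar probe set for at most 2 of them. Members and lists were chosen with earlier results of these data known.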

Additional observations from a re-analysis of the deposited data

How the results depend on the processing

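Without the block, 51 probe sets were called in all and no member, and no member was called under any filter, normalization, variance model or left-out array run without the block. At an adjusted p under 0.01 the total was 2, and with both replicate 1 arrays left out, a setting added after seeing the data, it was 1072, still with no member. With the replicate block the total was 2703 with 2 members. Together with the block, no filter gave 2455 (2 members), the 60th percentile filter 3052 (3 members), quantile normalization 2562 (3 members), median centring 2546 (2 members), no intensity trend 191 (0 members) and an adjusted p under 0.01 gave 625 (0 members); the blocked filters, normalizations and stricter threshold were also added after seeing the data. Leaving out 1 array gave totals of 0 to 58 with no member. The total of 0 came without null 2 or wild-type 2, where limma had an unadjusted p under 0.05 at 2064 and 1753 probe sets, and the cause was not tested. With the block, leaving out pair 1, 2 or 3 gave 2045, 606 and 2319 with 0, 0 and 1 members.

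Fcgr3, Fcer1g, Tyrobp and 1451941_A_AT kept their direction in every setting run. Leaving out 1 array or pair turned the direction of the others: Fcgr1 ranged from -0.20 to 0.44 log2 units without 1 array and from -0.049 to 0.17 without 1 pair, 1435476_A_AT from -0.16 to 0.019 and from -0.18 to 0.054, and 1435477_S_AT from -0.20 to 0.0061 without 1 pair. With the filter and normalization otherwise as reported, the block changed no member's call other than those of Fcer1g and Tyrobp, and it also changed that of Fcgr3 under the 60th percentile filter and after quantile normalization.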
